A study of Caenorhabditis elegans with 4 samples.

Results

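Oocyte maturation and egg activation were examined through 10 genes of Caenorhabditis elegans, chosen by their names from a table of 17096 genes. They were oma-1, oma-2, mex-3, mex-5, mex-6, pos-1, egg-1, egg-2, egg-3 and rme-2, and all 10 passed the filter of at least 10 reads in at least 1 library. These genes were picked with earlier results of these data known. The RNA came from whole worms of the wild-type strain N2, raised from the first larval stage on a single bacterium, which was Escherichia coli OP50 (the usual food of this worm in the laboratory) or Bacillus subtilis PY79. Worms were harvested at adult day 4 or day 13, which gave 4 groups with 1 library each. The study used this experiment to ask how a diet that lengthens life alters gene expression with age. Each library pooled a large synchronized population that was washed over nylon mesh during adulthood, and use of the sterilizing drug FUDR is given only for the aging transcriptomes of the study in general.

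The nematode oocyte stops in meiosis until a sperm signal triggers maturation, ovulation and fertilization. Transcription is then silent, so RNA-binding proteins and protein turnover run the passage from oocyte to embryo. OMA-1 and OMA-2 are zinc finger proteins that oocytes need to mature. MEX-3, MEX-5, MEX-6 and POS-1 bind maternal mRNAs and set where in the embryo they are translated. EGG-1 and EGG-2 are membrane proteins of the oocyte that fertilization requires, EGG-3 is a phosphatase-like scaffold of egg activation, and RME-2 is the receptor through which oocytes take up yolk. In whole worms, fewer oocytes or embryos and less RNA per cell cannot be told apart.

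Reads were counted per annotated transcript in libraries made from the 3' ends of poly(A) RNA, and each gene was represented by its transcript line with most reads. The OP50 libraries held 28650595 reads at day 4 and 28552961 at day 13, and the PY79 libraries 4838114 and 4469802, which is 5.92 times fewer at day 4 and 6.39 times fewer at day 13. Levels are given as CPM, the usual unit of reads relative to the size of the library, here scaled by TMM, a method that balances the bulk of genes between libraries. Because there is no replicate, intervals in parentheses are exact 95% intervals of counting error only, and a difference between 2 libraries has no replicate check. Genes whose scaled reads differed by 2-fold or more, with an interval that leaves out a ratio of 1, are called counted higher or counted lower. The verbs rose and fell stand only for calls of edgeR's quasi-likelihood method with p-values adjusted by Benjamini and Hochberg and a limit of 0.05. Its model adds an effect of diet to an effect of day and leaves 1 residual degree of freedom. The spread it uses thus comes from the departure of the 4 libraries from additivity. In the main fit this was a trend over genes, with no weight for a gene's own departure.

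The 10 genes were mostly higher on PY79 than on OP50. At day 4, 5 of 10 were counted higher and 0 lower, where 25.4% of 9032 genes were higher and 24.3% lower (49.7% either way). At day 13, 6 were higher and 0 lower, where 22.6% of genes were higher and 22.8% lower (45.4% either way). The members' median log2 ratio of PY79 to OP50 was 0.97 at day 4 and 1.44 at day 13, beside -0.09 and 0.01 for all genes. Over both days mex-3, egg-2 and egg-3 rose on PY79 in edgeR's test, 3 of 10, where 14.8% of genes rose and 17.0% fell, and these 3 passed under every alternative tried. With reads scaled by library total in place of TMM, 1415 genes rose and 486 fell, beside 1334 and 1538 with TMM, and 9 of the 10 members were counted higher at day 13. That scaling moves all genes, since 39.0% were then counted higher and 11.8% lower at day 13, with a median log2 ratio of 0.78.

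With age, 2 of 10 genes were counted lower on OP50 (egg-1 and rme-2) and 2 on PY79 (oma-2 and pos-1), and 0 were higher on either diet. With transcript lines summed, mex-3 was also counted lower on OP50 (log2 -1.01). Of all genes, 18.9% were lower and 14.6% higher on OP50 (33.5% either way), and 7.97% lower and 6.48% higher on PY79 (14.4% either way). The members' median log2 ratio of day 13 to day 4 was -0.22 on OP50 and -0.64 on PY79, beside 0.02 and -0.11 for all genes. On PY79 all 10 ratios were below 1, with intervals that include 1 for oma-1 and mex-6. The oma-1 ratio was above 1 with total reads, DESeq2 size factors, 10 reads required in each library and OP50 reads thinned to PY79 totals. On OP50 the ratios of mex-6, oma-1, oma-2, egg-2 and egg-3, all with intervals that include 1, changed direction between alternatives. With total reads, with 10 reads required in each library or with OP50 thinned, neither oma-2 nor pos-1 was counted lower on PY79. In edgeR's additive model egg-1 alone fell with age (1 of 10, where 4.05% of genes fell and 3.52% rose), and its adjusted p ranged from 0.044 to 0.50 over the alternatives. The age and diet comparisons share libraries, so that a high or low value in 1 library enters an age and a diet ratio alike.

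**Figure D1:**
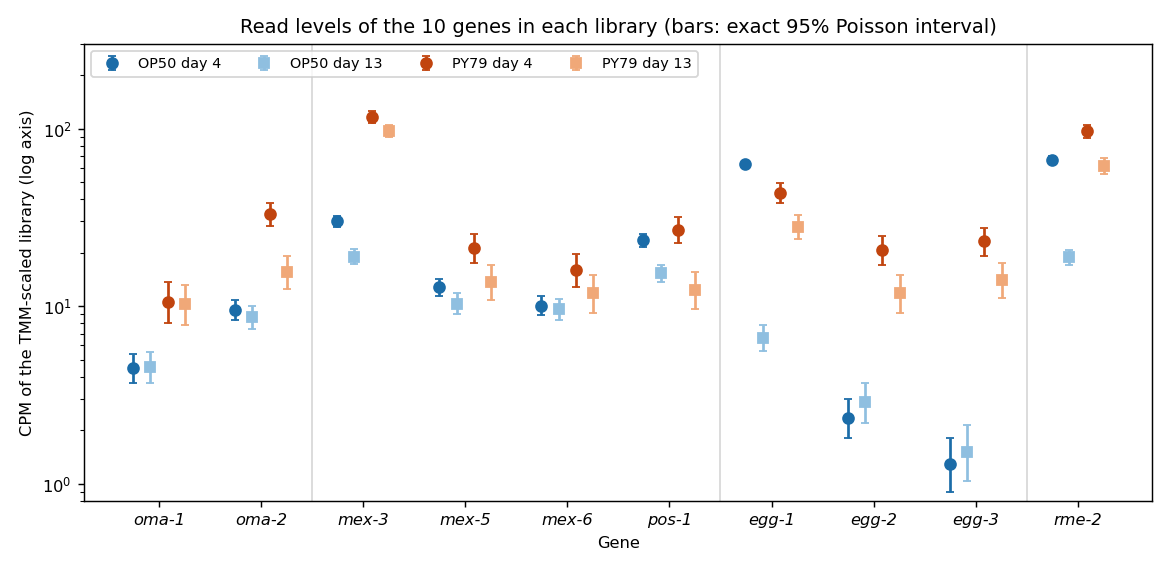
CPM of the TMM-scaled library (log axis) for each of the 10 genes, with 1 point per library and bars for the exact 95% Poisson interval of the read count. The PY79 points of mex-3, egg-2 and egg-3 lie above both OP50 points, and egg-1 is lowest on OP50 at day 13, at 6.65 CPM.

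The OMA genes, which act redundantly to let oocytes mature, were both higher on PY79 at day 4. The oma-1 gene (C09G9.6) stood at 4.47 CPM on OP50 at day 4, 4.53 on OP50 at day 13, 10.6 on PY79 at day 4 and 10.3 on PY79 at day 13, from 118, 96, 57 and 60 reads. Both PY79 values thus lay above both OP50 values, with little difference by age. The diet ratio was 2.36-fold higher (1.69–3.27) at day 4 and 2.27-fold higher (1.61–3.16) at day 13. With no filter (log2 0.91 and 0.90) and with 10 reads required in each library (0.94 and 0.98) neither ratio was counted higher. In edgeR's model its diet change of 1.21 (log2) had an adjusted p of 0.096, so that it did not pass.

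The oma-2 gene (ZC513.6) stood at 9.51 and 8.68 CPM on OP50 at day 4 and day 13, and at 33.0 and 15.6 CPM on PY79. Here the young PY79 worms were apart, at 3.47-fold (2.85–4.22) the OP50 level. By day 13 the PY79 library was 2.12-fold lower (1.64–2.76) than at day 4, a call lost under 3 alternatives (log2 -0.91 to -0.85), while on OP50 the age ratio was 1.09-fold lower (0.90–1.33). Diet at day 13 gave a ratio of 1.79-fold higher (1.38–2.32), short of the 2-fold limit. The diet change of 1.32 (log2) in edgeR had an adjusted p of 0.076, and with OP50 thinned it passed, at 1.69 and an adjusted p of 0.021.

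Of the genes that place maternal mRNAs in the embryo, mex-3 differed most between diets. MEX-3 is a KH-domain protein that keeps the homeobox mRNA pal-1 untranslated in oocytes and in anterior cells. The mex-3 gene (F53G12.5) stood at 30.2 CPM on OP50 at day 4, 18.97 on OP50 at day 13, 117 on PY79 at day 4 and 97.0 on PY79 at day 13. The 4 intervals did not touch, and both PY79 values were above both OP50 values. It was 3.88-fold higher (3.49–4.31) on PY79 at day 4 and 5.11-fold higher (4.49–5.83) at day 13. It rose with the PY79 diet by 2.15 (log2) in edgeR, with an adjusted p of 0.0015. Day 13 was 1.59-fold lower (1.41–1.80) than day 4 on OP50 and 1.21-fold lower (1.07–1.35) on PY79.

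MEX-5 and MEX-6 are closely related zinc finger proteins that gather in the anterior of the zygote and drive its polarity. The mex-5 gene (W02A2.7) stood at 12.8 and 10.3 CPM on OP50 at day 4 and day 13, and at 21.1 and 13.7 CPM on PY79. The mex-6 gene (AH6.5) stood at 10.1, 9.58, 15.9 and 11.8 CPM in the same order. Both followed 1 order, with OP50 day 13 lowest and PY79 day 4 highest, and only mex-5 at PY79 day 4 had an interval apart from the next library. On PY79 at day 4 mex-5 was 1.65-fold higher (1.32–2.05) and mex-6 1.58-fold higher (1.23–2.02), and at day 13 mex-5 was 1.32-fold higher (1.01–1.72). The day 13 ratio of mex-6, 1.23-fold higher (0.92–1.63), was not separable from 1 at this depth. Neither passed edgeR's test for diet (adjusted p of 0.48 and 0.55) or for age (0.90 and 0.96).

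The gene of POS-1, a zinc finger protein of the posterior embryo, was separated more by age than by diet. The pos-1 gene (F52E1.1) stood at 23.4 and 15.4 CPM on OP50 at day 4 and day 13, and at 26.9 and 12.3 CPM on PY79, so that both day 13 libraries lay below both day 4 libraries. On PY79 day 13 was 2.18-fold lower (1.63–2.94) than day 4, a call lost under the same 3 alternatives (log2 -0.95 to -0.89), and on OP50 it was 1.52-fold lower (1.33–1.75). The diet ratios were 1.15-fold higher (0.95–1.38) at day 4 and 1.25-fold lower (0.96–1.64) at day 13, both with intervals that include 1. These directions depend on scaling, since with total reads the day 13 ratio was above 1, and with a filter of 10 reads in each library the day 4 ratio was below 1. Its age change of -0.86 (log2) in edgeR had an adjusted p of 0.61.

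The EGG genes showed the widest differences. EGG-1 and EGG-2 carry LDL receptor repeats on the oocyte surface and act redundantly in fertilization and eggshell formation. The egg-1 gene (B0244.8) stood at 63.0 CPM on OP50 at day 4, 6.65 on OP50 at day 13, 43.6 on PY79 at day 4 and 28.1 on PY79 at day 13, from 1664, 141, 235 and 164 reads. The old OP50 library was far below the other 3. Day 13 was 9.47-fold lower (7.97–11.3) than day 4 on OP50 and 1.55-fold lower (1.27–1.91) on PY79. The PY79 age ratio was 6.10 times the OP50 age ratio, with a counting interval of 4.69 to 7.94, and with 1 library per group this difference has no test. By the same measure rme-2 (2.26) and mex-3 (1.32) also lay above 1. The values of pos-1 (0.70), oma-2 (0.52), egg-2 (0.46) and egg-3 (0.52) lay below 1, each with an interval that leaves out 1. For mex-5, mex-6 and oma-1 the interval includes 1. By diet, egg-1 was 1.45-fold lower (1.26–1.67) on PY79 at day 4 and 4.22-fold higher (3.35–5.32) at day 13.

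In edgeR's model egg-1 fell with age by 1.94 on the log2 scale, with an adjusted p of 0.031. This call held with DESeq2 size factors (0.044) and was lost under the other 6 alternatives. The values were 0.051 to 0.057 for 4 of them, 0.083 in DESeq2's own test and 0.50 with total reads. With TMM the spread came from a trend over genes, so the gap between the 2 age ratios of egg-1 did not enter it. With total reads the change was -1.98 (log2), and the gene's own spread had weight (4.83 prior degrees of freedom), so more than scaling differed. On OP50 the log2 age ratio of egg-1 lay between -3.54 and -3.15 under every scaling. A gene on the opposite strand, B0244.9, overlaps egg-1 in the annotation and held 3, 9, 0 and 3 reads.

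The egg-2 gene (R01H2.3) went another way and separated by diet. It stood at 2.35 and 2.88 CPM on OP50 at day 4 and day 13, and at 20.8 and 11.8 CPM on PY79, from 62, 61, 112 and 69 reads. It was 8.84-fold higher (6.42–12.3) on PY79 at day 4 and 4.10-fold higher (2.86–5.89) at day 13. It rose with the PY79 diet by 2.59 (log2) in edgeR, with an adjusted p of 0.00039. With age it was 1.76-fold lower (1.29–2.41) on PY79 and 1.23-fold higher (0.85–1.77) on OP50, where the interval includes 1.

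EGG-3 resembles a tyrosine phosphatase, and at fertilization it moves inward from the oocyte cortex together with the chitin synthase CHS-1 and the kinase MBK-2. The egg-3 gene (F44F4.2) had the largest diet ratio of the 10 genes. It stood at 1.29 and 1.51 CPM on OP50 at day 4 and day 13, and at 23.2 and 14.03 CPM on PY79, from 34, 32, 125 and 82 reads. The shallower PY79 libraries thus held more egg-3 reads than the OP50 libraries even before scaling. The gene was 17.99-fold higher (12.2–27.1) on PY79 at day 4 and 9.29-fold higher (6.11–14.5) at day 13. It rose with the PY79 diet by 3.69 (log2) in edgeR, with an adjusted p of 1.2e-06. Its age ratio was 1.65-fold lower (1.24–2.21) on PY79 and 1.17-fold higher (0.70–1.96) on OP50. The overlapping gene lurp-1, on the opposite strand, held 4, 1, 1 and 1 reads.

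RME-2 belongs to the LDL receptor family and clears yolk proteins from the body cavity into the growing oocyte. The rme-2 gene (T11F8.3) stood at 66.6 CPM on OP50 at day 4, 18.9 on OP50 at day 13, 96.8 on PY79 at day 4 and 61.9 on PY79 at day 13. As for egg-1, the old OP50 library was the low one. Day 13 was 3.53-fold lower (3.16–3.94) than day 4 on OP50 and 1.56-fold lower (1.36–1.79) on PY79. The PY79 to OP50 ratio was 1.45-fold higher (1.31–1.60) at day 4 and 3.28-fold higher (2.84–3.79) at day 13. In edgeR the age change was -1.23 (log2) with an adjusted p of 0.23, and the diet change 1.12 with an adjusted p of 0.11, so neither passed.

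Its ligands, the yolk proteins, are made in the intestine from 6 vitellogenin genes, all of which fell with age in edgeR's test. With total reads 0 of the 6 passed, at adjusted p of 0.075 to 0.12. Their summed level went from 24657 CPM at day 4 to 3890 at day 13 on OP50, and from 18311 to 3046 on PY79. The receptor and the ligands thus were both lower at day 13 on each diet, by unequal amounts.

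**Figure D2:**
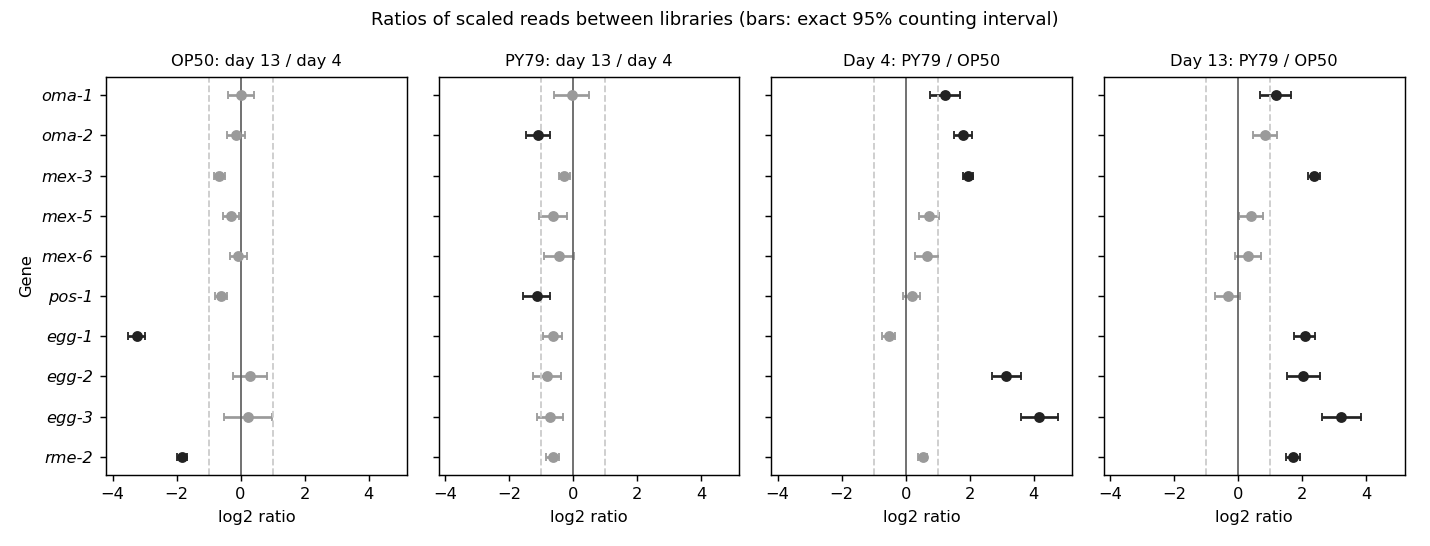
Log2 ratio of scaled reads for each of the 10 genes in the 4 comparisons, with exact 95% counting intervals; dashed lines mark 2-fold, and black points are the genes counted as higher or lower. Black points lie to the left in the age panels (egg-1 and rme-2 on OP50, oma-2 and pos-1 on PY79) and to the right in the diet panels.

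A share of the reads of 2 related genes within 1 library does not depend on how the library is scaled. By this measure the egg pair differed most between libraries. The share of oma-1 in the reads of oma-1 and oma-2 was 32.0% (27.2–37) on OP50 at day 4, 34.3% (28.7–40.2) on OP50 at day 13, 24.3% (18.9–30.3) on PY79 at day 4 and 39.7% (31.9–48.0) on PY79 at day 13. These intervals overlap except for those of the 2 PY79 libraries. The share of mex-5 in the reads of mex-5 and mex-6 lay between 51.9% and 57.0%, with 4 overlapping intervals. The share of egg-1 in the reads of egg-1 and egg-2 was 96.4% (95.4–97.2) on OP50 at day 4, against 69.8% (63.0–76.0) on OP50 at day 13, 67.7% (62.5–72.6) on PY79 at day 4 and 70.4% (64.1–76.2) on PY79 at day 13. The young OP50 library thus stood apart from the other 3, which differed from each other by less than their intervals. Whether reads shared by such related genes were assigned to either one is not stated for the counts, so values within a pair are uncertain to that extent.

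**Figure D3:**
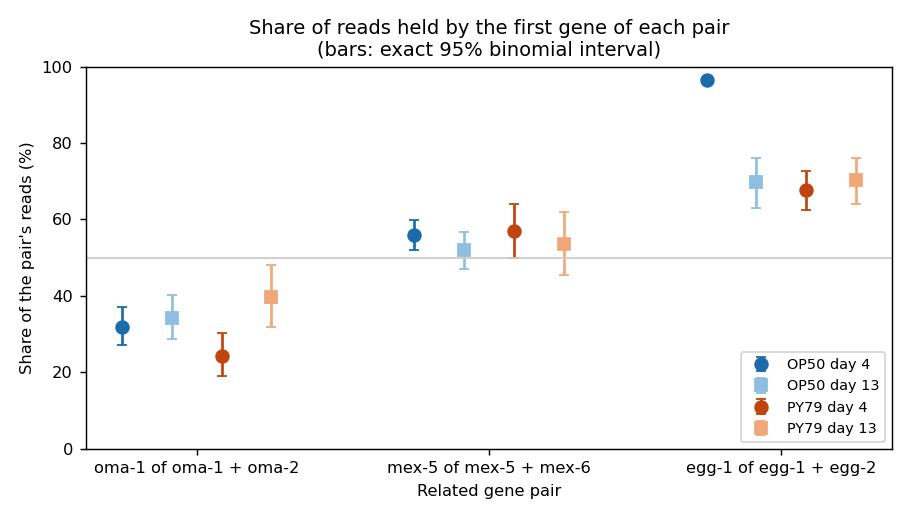
Share of a related pair's reads (in percent) held by the first gene, for the oma, mex and egg pairs, with 1 point per library and exact 95% binomial intervals. The share of egg-1 is 96.4% on OP50 at day 4 and between 67.7% and 70.4% in the other 3 libraries.

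Together the 10 genes took 5907 reads on OP50 at day 4, 2064 on OP50 at day 13, 2205 on PY79 at day 4 and 1616 on PY79 at day 13. Their summed level was 224, 97.4, 409 and 277 CPM in that order. On OP50 at day 4, egg-1 and rme-2 held 28.2% and 29.8% of these reads, and on OP50 at day 13 they held 6.83% and 19.4%, beside 19.5% for mex-3. On PY79 mex-3 held most, 28.6% at day 4 and 35.1% at day 13.

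The mex-3 gene has 3 transcript lines in the table, which share reads, and they differed between diets. Line F53G12.5b, used above, held 796, 402, 631 and 567 reads, and line F53G12.5a.1 held 657, 258, 576 and 495, with OP50 day 4, OP50 day 13, PY79 day 4 and PY79 day 13 in that order. Line F53G12.5a.2 held 506 and 109 reads on OP50 and 2 and 17 reads on PY79. Relative to line b, a.2 stood at 63.6% and 27.1% on OP50 and at 0.32% and 3.00% on PY79. On OP50 this line was 3.73-fold lower (3.02–4.63) at day 13 than at day 4, a larger difference than that of line b. By diet its ratio at day 4 was 51.7-fold lower (14.2–428) on PY79, opposite to that of line b, and at day 13 it was 1.77-fold lower (1.06–3.15). The sources used here do not say what sets the lines apart in the annotation that was counted. Line a.1 went in the direction of line b and was 4.29-fold higher (3.83–4.80) on PY79 at day 4 and 6.96-fold higher (5.97–8.12) at day 13.

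**Figure D4:**
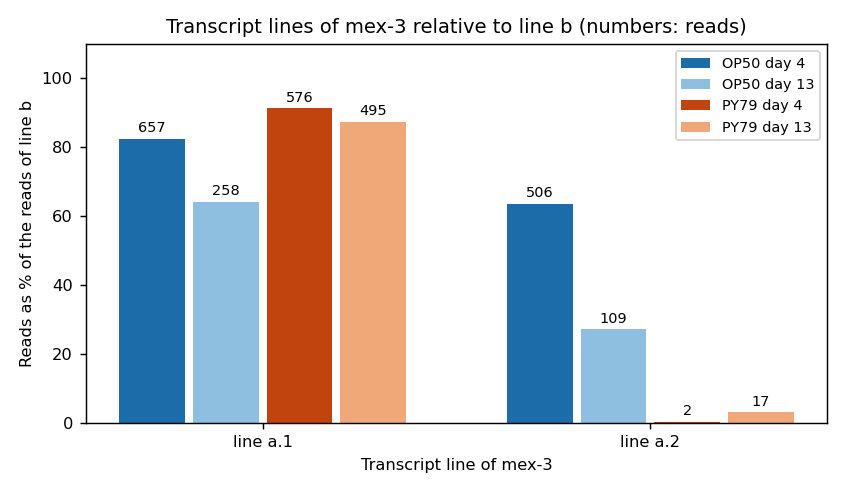
Reads of mex-3 transcript lines a.1 and a.2 as a percentage of the reads of line b in each library, with the read count above each bar. Line a.2 stands at 63.6% and 27.1% on OP50 and at 0.32% and 3.00% on PY79.

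Diet ratios of all genes moved with read level. Over all genes holding 10 reads or more in each of the 4 libraries, the median log2 ratio of PY79 to OP50 at day 4 was 1.27 for the 1573 genes with a mean level of at most 2 (log2 CPM), 0.53 for levels from 2 to 3, -0.14 from 3 to 4, -1.01 from 4 to 5 and -1.23 from 5 to 6. At day 13 these medians were 0.96, 0.59, 0.05, -0.90 and -1.41. Abundant genes were thus lower on PY79 and scarce genes higher, in these libraries of unequal depth. The limit of 10 reads in each library removes scarce genes that are low in the shallower PY79 libraries, and with that limit in 1 library only, the median at day 4 was 0.12 up to a level of 2 and 0.38 from 2 to 3. The part that level has in the members' ratios was not tested. All 10 members lay above the median of genes of their level at both days. The mean levels of mex-3 and rme-2 lie between 5 and 6, where the medians were lowest. The log2 diet ratio of mex-3 was 3.19 above the median of its level at day 4 and 3.76 above it at day 13, and that of rme-2 was 1.77 and 3.12 above. For egg-3 the excess was 3.57 and 2.57, and for mex-6 it was 0.80 and 0.25. For age on OP50, 2 of 10 members lay above the median of their level, and on PY79 1 did.

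**Figure D5:**
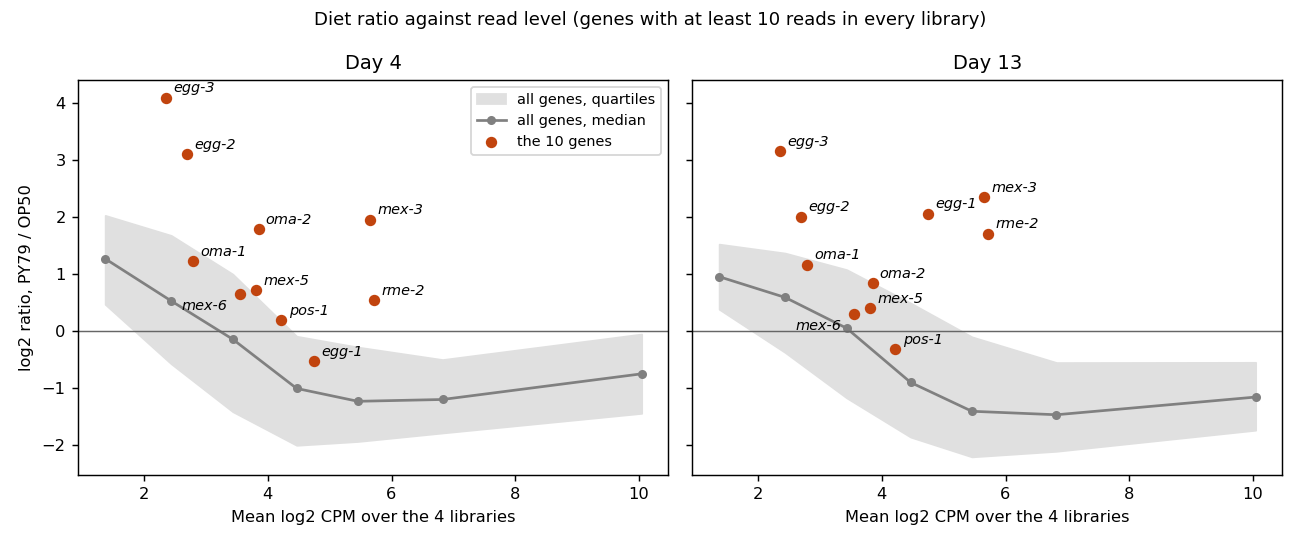
Log2 ratio of PY79 to OP50 against the mean level over the 4 libraries (log2 CPM), with the median and quartiles of all genes that reached 10 reads in each library in grey, and the 10 genes in red, at day 4 (left) and day 13 (right). The grey median falls from 1.27 to -1.23 at day 4 as the level rises to 6, and all 10 genes lie above it on both days.

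The genes that build the eggshell were in part lower on PY79. Of 7 eggshell genes, 2 fell with the PY79 diet (perm-2 and cpg-3), 0 rose and 5 did not pass. Over all genes 17.0% fell and 14.8% rose with this diet, the shares to hold beside the counts of this and the following lists. These shares are not matched for read level. With total reads cpg-3 did not pass (adjusted p of 0.093 in edgeR). The list's median log2 diet ratio was -1.15 at day 4 and -1.34 at day 13. Some of these genes are among the most abundant, such as perm-2 at 1491 to 6107 CPM. All genes with a mean level above 8 (log2 CPM) had medians of -0.75 at day 4 and -1.16 at day 13. The part that level has in this list was not tested. At day 4, 4 of the 7 were counted lower and 0 higher, where 24.3% of all genes were lower. At day 13, 4 were counted lower and 1 higher, where 22.8% of all genes were lower. The vitelline and permeability layer gene perm-2 (C44B12.1) was 3.60-fold lower (3.53–3.68) on PY79 at day 4 and 4.10-fold lower (4.01–4.19) at day 13. The proteoglycan-like gene cpg-3 (R06C7.4) was 4.38-fold lower (4.14–4.64) and 2.69-fold lower (2.53–2.85). At the other end cbd-1 (H02I12.1), a chitin-binding protein to which EGG-1 and EGG-2 are anchored, was 1.73-fold higher (1.42–2.09) and 1.02-fold higher (0.78–1.32).

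With age, 1 eggshell gene fell (cpg-2), 0 rose and 6 did not pass, and with total reads cpg-2 did not pass either (adjusted p of 0.53 in edgeR). Over all genes 4.05% fell and 3.52% rose with age. The chondroitin proteoglycan gene cpg-2 (B0280.5) held 19453 reads in young and 744 in old OP50 worms, and was 21.0-fold lower (19.5–22.6), against 1.45-fold lower (1.27–1.66) on PY79. The chitin synthase gene chs-1 (T25G3.2), singled out after its values were seen, was 5.44-fold lower (4.69–6.33) at day 13 on OP50 and 1.45-fold lower (1.15–1.84) on PY79, and did not pass (adjusted p of 0.13 in edgeR). Both ratios were thus further from 1 on OP50 than on PY79, as for egg-1 and rme-2 and unlike oma-2, pos-1, egg-2 and egg-3. The list does not share this pattern as a whole. The cpg-3 ratio went the same way, 1.84-fold lower on OP50 and 1.13-fold lower on PY79. The cbd-1 ratio went the other way, 1.23-fold lower (1.05–1.43) and 2.08-fold lower (1.57–2.78). On OP50 perm-2 and cpg-1 were 1.03-fold and 1.02-fold higher, and on PY79 1.11-fold and 1.12-fold lower. These differences between diets have no test here. The age ratio of perm-4 (C44B12.5) on OP50, singled out in the same way, was in the other direction, 2.36-fold higher (2.35–2.38).

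Among 5 further genes of egg activation, 0 rose and 0 fell with diet or age. Their median log2 diet ratio was -0.75 at day 4 and -0.18 at day 13. The pseudophosphatase genes egg-4 (T21E3.1) and egg-5 (R12E2.10), whose products hold MBK-2 inactive in the oocyte, were chosen after their values were seen. They were 1.04-fold higher (1.01–1.08) and 1.05-fold lower (1.02–1.08) at day 13 on OP50, and 1.24-fold lower (1.14–1.35) and 1.58-fold lower (1.46–1.70) on PY79. By diet egg-4 was 1.68-fold lower (1.58–1.78) on PY79 at day 4 and 2.17-fold lower (2.03–2.32) at day 13. For egg-5 the diet ratios were 1.23-fold lower (1.16–1.29) and 1.84-fold lower (1.73–1.96), opposite to those of egg-2 and egg-3. These pairs differ in level, with egg-4 and egg-5 at 174 to 394 CPM. All genes had median log2 diet ratios of -1.20 and -1.47 at levels from 6 to 8, and -0.75 and -1.16 above 8. At levels from 2 to 3, where egg-2 and egg-3 lie, the medians were 0.53 and 0.59. The part that level has in this contrast was not tested. The kinase gene mbk-2 (F49E11.1) was 2.36-fold higher (1.92–2.89) on PY79 at day 4 and 1.38-fold higher (1.06–1.78) at day 13. The sperm-supplied gene spe-11 (F48C1.7) was at the other end of the diet changes and held 18, 29, 0 and 7 reads.

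Of 19 other RNA regulators of oocytes and early embryos, 6 rose with the PY79 diet, 0 fell and 13 did not pass, and 0 changed with age. Of these 6 calls, 5 held with total reads and 2, those of puf-7 and pie-1, under all 7 alternatives. The list's median log2 diet ratio was 0.49 at day 4 and 0.52 at day 13. All genes with 10 reads in every library had medians of 0.53 and 0.59 at mean levels from 2 to 3 (log2 CPM). From 3 to 4 the medians were -0.14 and 0.05. Genes of this list differ in level, such as puf-7 at 1.33 to 13.2 CPM and puf-11 at 20.7 to 92.5 CPM. The part that level has in this list was not tested. The Pumilio-family gene puf-7 (B0273.2) was 9.93-fold higher (6.53–15.3) on PY79 at day 4 and 3.72-fold higher (2.33–5.93) at day 13, and pie-1 (Y49E10.14), a zinc finger gene of the germline blastomeres, was 4.72-fold higher (3.21–6.94) and 3.36-fold higher (2.25–5.01). The translational repressor gene ifet-1 (F56F3.1) rose as well, at 1.40-fold higher (1.34–1.47) and 7.03-fold higher (6.63–7.46). These 2 ratios are far apart, although the model fits 1 diet effect to both days. The call of ifet-1 was lost with total reads (adjusted p of 0.091 in edgeR) and with no filter (0.100). At the low end puf-11 (Y73B6BL.38) was 2.51-fold lower (2.17–2.91) on PY79 at day 4 and did not pass (adjusted p of 0.20 in edgeR).

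Of 6 mRNAs known as targets of these proteins, 2 rose with the PY79 diet (pal-1 and mom-2), 0 fell and 4 did not pass. The MEX-3 target pal-1 (C38D4.6), a caudal-type homeobox gene, was 4.89-fold higher (3.79–6.32) at day 4 and 3.03-fold higher (2.23–4.11) at day 13. The Wnt gene mom-2 (F38E1.7) was 3.81-fold higher (3.05–4.75) and 2.57-fold higher (1.96–3.35), and the Notch ligand gene apx-1 (K08D9.3), at the low end, was 1.36-fold higher (0.99–1.86) and 1.08-fold higher (0.74–1.55). The call of pal-1 held under all 7 alternatives and that of mom-2 under 6, and 0 of the 6 changed with age.

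Of 12 cell cycle genes of meiotic maturation, 4 rose with the PY79 diet, 1 fell and 7 did not pass, and 0 changed with age. A further cyclin B gene of this list, cyb-3, did not pass. Those that rose were the kinase gene cdk-1 and 3 cyclin B genes, cyb-1, cyb-2.1 and cyb-2.2, which encode parts of the maturation-promoting kinase. Of them cyb-1 (ZC168.4) was 9.02-fold higher (7.05–11.6) at day 4 and 2.204-fold higher (1.77–2.74) at day 13, and cyb-2.1 (Y43E12A.1) was 7.25-fold higher (5.07–10.4) and 3.39-fold higher (2.32–4.94). The polo-like kinase gene plk-2 (Y71F9B.7) fell and was 2.90-fold lower (2.33–3.65) and 3.49-fold lower (2.81–4.39), but did not pass with total reads (adjusted p of 0.14 in edgeR). Of the 4 calls of genes that rose, 3 held under all 7 alternatives and that of cdk-1 under 2.

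Of 7 polarity genes, 1 rose with the PY79 diet, 1 fell and 5 did not pass. With 14.8% of all genes rising and 17.0% falling, 1 of 7 either way is near the share of all genes. The atypical protein kinase C gene pkc-3 (F09E5.1) rose and was 6.10-fold higher (4.61–8.11) at day 4 and 3.02-fold higher (2.27–4.00) at day 13. The 14-3-3 gene par-5 (M117.2) fell and was 13.1-fold lower (11.5–15.03) and 2.61-fold lower (2.29–2.98), but did not pass with total reads (adjusted p of 0.12 in edgeR). Of 7 tested genes that carry the sperm signal to the oocyte, 1 fell with the PY79 diet, 0 rose and 6 did not pass, and another 4 were below the read limit. Here too 1 of 7 is near the share of all genes. The oocyte gap junction gene inx-22 (Y47G6A.2) is the one that fell (adjusted p of 0.050 with total reads in edgeR, just short of passing), and was 4.83-fold lower (4.19–5.59) and 4.56-fold lower (3.88–5.38), while the Eph receptor gene vab-1 (M03A1.1) was 1.58-fold higher (1.17–2.11) and 2.16-fold higher (1.69–2.74).

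Of 7 genes that traffic receptors such as RME-2, 1 rose with the PY79 diet, 0 fell and 6 did not pass. This is near the share of all genes that rose (14.8%). The recycling gene rme-1 (W06H8.1) rose and was 3.63-fold higher (2.78–4.71) at day 4 and 2.11-fold higher (1.66–2.68) at day 13, and its call held under 2 of 7 alternatives. The clathrin heavy chain gene chc-1 (T20G5.1), at the low end, was 2.44-fold lower (1.63–3.79) and 2.22-fold lower (1.53–3.34). In the polarity, sperm signal and trafficking lists, 0 genes passed the test for age.

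Markers of the cells and stages that a whole worm holds were read beside the 10 genes. Of 16 general germline genes, 0 rose and 4 fell with the PY79 diet (glh-1, glh-4, pgl-3 and syp-1), and their median log2 diet ratio was 0.11 at day 4 and 0.52 at day 13. Of 8 tested sperm genes, 6 rose and 0 fell with age, while 2 fell with the PY79 diet (nspd-1 and ssp-16). The summed level of these sperm genes was 35.8 CPM on OP50 at day 4, 652 on OP50 at day 13, 24.8 on PY79 at day 4 and 259 on PY79 at day 13. Of 10 genes in the table that embryos transcribe after fertilization, 5 passed the read limit, of which 2 fell with the PY79 diet (ceh-51 and hlh-1), and their summed level was 46.1, 80.8, 23.9 and 5.30 CPM. The endoderm genes end-1 and end-3 among them held at most 2 reads in any library. Of 4 tested genes of the gonad sheath and spermatheca, 0 changed with diet or age, and their summed level lay between 10.6 and 16.5 CPM. The part that a different share of oocytes, embryos or sperm has in the members' values was not tested. Among somatic markers, vit-2 of the intestine, unc-54 of body muscle and col-19 of the epidermis fell with age, which leaves 5 of 6, 3 of 4 and 1 of 2 tested genes of those lists that did not pass the test for age. With total reads the diet call of glh-1 held, and the other calls of these germline, sperm, embryo and somatic markers named here did not.

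The genes whose profile over the 4 libraries was most like the members' median profile were T23B12.6, tbg-1, hmg-5, ctsa-1.1 and pkg-2. Likeness was the distance between log2 levels centred on their mean over the 4 libraries, and it ran from 0.09 to 0.13 for these 5 genes among 4731 genes compared. The members themselves lay between 0.47 (oma-2) and 2.54 (egg-3) from their own median profile, so the median describes no single member closely.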

How the data were processed

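Whole-worm RNA of 4 libraries, 1 per diet and day, was analysed. The values the authors deposited are unnormalized counts of reads, with 24775 lines for annotated transcripts. Per the submitters' processing notes reads were aligned with Bowtie 0.12.7. Build, annotation release, counting tool and strandedness were not given in the sources used here. Coordinates and sequences were therefore not used here. The line with most reads was taken for each gene. Symbols came from Ensembl release 115, to which 16760 of 17096 genes matched, and 2 lines without a gene name held 0 reads.

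The analysis kept 9032 genes that reached 10 reads in 1 library or more. Log2 ratios used TMM and a prior count of 1. Ratio intervals were Clopper-Pearson intervals for the division of a gene's reads between both libraries, and cover counting error only, as reads carry no molecular identifiers. The test was edgeR 4.0.16 (quasi-likelihood), with DESeq2 1.42.0 as an alternative. A check on simulated counts used a smaller dispersion than the fitted one and no diet effect, so it cannot vouch for the test in this design. With a common dispersion of 0.138 and infinite prior degrees of freedom, the fitted trend alone set every gene's spread. The fit with total reads had 4.83 prior degrees of freedom, so there scaling and spread changed together. Scaling by total reads moves the all-gene median (log2) by -0.30 (age, OP50), 0.19 (age, PY79), 0.26 (diet, day 4) and 0.77 (diet, day 13). The members and lists were chosen with earlier results of these data known, and the description by read level was added after seeing the data. Named were all members, in each list the ends of the fitted diet change and called genes (up to 4), and the 5 most alike profiles. Outside this rule, chs-1, perm-4, cpg-1, egg-4, egg-5, cyb-3 and the marker genes were named after their values were seen. The loss of list calls under alternatives was tabulated later.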

Additional observations from a re-analysis of the deposited data

Results flagged for a closer look

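Transcript lines that the comparisons leave out held reads above the limit of 3 reads that a count of 0 allows. For mex-3 these were line F53G12.5a.1 with 1986 reads over the 4 libraries and line F53G12.5a.2 with 634, nearly all of the latter on OP50. For rme-2 the second line, T11F8.3.2, held 3022 reads and stood at 98.3% to 99.8% of the first in each library. For egg-3 the second line, F44F4.2.2, held 15 reads, of which 12 were on OP50 at day 4, beside 34 on the first line. For oma-1 the second line, C09G9.6.2, held 7 reads.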

How the results depend on the processing

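No paired analysis was possible because each group has 1 library and the labels number no replicates, and leaving out a library was not possible for the same reason. The alternatives were scaling by total reads or by DESeq2 size factors, summed transcript lines, no filter, at least 10 reads in every library, OP50 reads thinned to the PY79 totals, a prior count of 0.5, and DESeq2's own test. The members counted lower with age on PY79 went from 2 to 0 with total reads, with at least 10 reads in every library and with OP50 thinned, where pos-1 stood at -0.89, -0.95 and -0.94 and oma-2 at -0.85, -0.91 and -0.90 (log2). The 1 member that fell with age, egg-1, became 0 with total reads, summed lines, no filter, at least 10 reads in every library, OP50 thinned and DESeq2. With OP50 thinned, oma-2 rose with the diet. The members' median log2 diet ratio at day 13 went from 1.44 to 2.25 with total reads. No called ratio of a member changed direction. With at least 10 reads in every library and with no filter, oma-1 was no longer counted higher on PY79 at either day. Over all genes 318 rose and 366 fell with age with TMM, 0 and 1 with total reads (1076 genes at an unadjusted p under 0.05), 92 and 100 with at least 10 reads in every library, 243 and 171 with OP50 thinned, and 158 and 142 with DESeq2. For diet, 1538 genes fell with TMM and 486 with total reads, and 1334 rose with TMM, 854 with no filter and 504 with DESeq2. Among the edgeR fits, only that with total reads gave weight to each gene's own spread (4.83 prior degrees of freedom). Its counts thus differ by more than scaling. Depth limits the OP50 values of egg-3, which rest on 34 and 32 reads.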
